A study of Mus musculus with 2 samples.

Results

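The annotated pseudogenes that carried long reads in mouse gastrocnemius, a calf muscle, numbered 147. They were chosen by their reads: annotated genes whose type names a pseudogene, with 20 reads or more in the sum of both libraries. They are 147 of 660 annotated pseudogenes with a read, of 13525 in the annotation, and of 15324 annotated genes of any type with a read. The animals were female B6CASTF1/J mice, hybrids of C57BL/6J and CAST/EiJ, aged 36 days, and neither library had a treatment or a mutation. Replicate 1 and replicate 2 form 1 group, so no condition was compared. The labels give them different female numbers and tissue samples under 1 shared donor entry. Each started from 2 µg of RNA with Lexogen and Ambion spike-ins added. Annotated genes took 797105 reads in replicate 1 and 1602272 reads in replicate 2, and levels are given as CPM of these totals. A molecule can give 1 long read whatever its length, so levels were not divided by length, and copies made by amplification were not told apart. All 6 skeletal muscle markers had reads in both libraries, and their summed share of the reads was 31.9% for replicate 1 and 19.3% for replicate 2. Blood markers took 0.254% and 0.0550%, adipocyte markers 0.0642% and 0.0316%, and each of the endothelial, fibroblast, Schwann, immune and tendon lists under 0.1%. The part of these differences between the libraries in the ratios given for members was not tested.

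A processed pseudogene is a copy of a messenger RNA that was written back into DNA and inserted elsewhere in the genome. It therefore lacks the introns of its parent gene, and often has no promoter of its own. An unprocessed pseudogene arises by duplication of DNA and can keep exons and introns. Pieces of the mitochondrial genome that were inserted into a chromosome are also annotated as unprocessed pseudogenes. Highly expressed housekeeping genes, such as those of ribosomal proteins and Gapdh, have many processed copies in the mouse. A read from the parent can match a near-identical copy, so the assignment of reads between copy and parent is uncertain throughout.

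The sequences below set windows of selected copies, some with many reads and some with few, beside their parents. All are coding windows from the GENCODE M21 transcripts of the mm10 build, which represents C57BL/6J; CAST/EiJ alleles were not examined. The first pair is a junction of Gapdh, the glycolytic glyceraldehyde-3-phosphate dehydrogenase, on the minus strand of chromosome 6. Its bases lie at chr6:125162843-125162862 and, after the intron, at chr6:125162689-125162708, with the downstream exon in capitals. Gm12671, the copy with most reads, holds the same 40 bases without the intron at chr4:91852131-91852170, minus strand.
Gapdh: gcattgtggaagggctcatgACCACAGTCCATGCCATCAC
Gm12671: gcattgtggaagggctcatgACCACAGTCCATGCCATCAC

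Gm12671 aligned to Gapdh over 1002 bases with 0 differences. In contrast, 4 other copies carried 1 substitution each and no gap, counted from 1 at the first base of transcript Gapdh-201 with the base of Gapdh first. These were T477A in Gm5559, T596C in Gm12033, A438C in Gm13394 and C675T in Gm2606. Gm7336 differed by G197A, counted in the longer transcript Gapdh-203, and by 2 gap bases, and is not shown. The windows around the other 4 follow in that order, with the changed base in capitals and each copy below the matching window of Gapdh. The Gapdh windows lie on the minus strand at chr6:125162957-125162997, at chr6:125162843-125162878 joined to chr6:125162704-125162708, at chr6:125162996-125163036 and at chr6:125162625-125162665. The copies lie at chr5:95862078-95862118 (plus), chr11:20335490-20335530 (minus), chr2:28934244-28934284 (minus) and chr15:12575451-12575491 (plus).
Gapdh: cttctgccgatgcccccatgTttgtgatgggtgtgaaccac
Gm5559: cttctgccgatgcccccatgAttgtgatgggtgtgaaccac
Gapdh: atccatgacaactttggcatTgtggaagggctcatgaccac
Gm12033: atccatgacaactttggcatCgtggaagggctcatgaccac
Gapdh: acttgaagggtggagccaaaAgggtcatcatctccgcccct
Gm13394: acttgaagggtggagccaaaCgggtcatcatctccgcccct
Gapdh: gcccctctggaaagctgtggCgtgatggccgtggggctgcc
Gm2606: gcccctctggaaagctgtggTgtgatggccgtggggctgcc

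Copies of Rpl35a, a protein of the large ribosomal subunit, showed the same closeness among themselves. The 333-base annotated sequences of Gm10243, Rpl35a-ps2, Rpl35a-ps3 and Rpl35a-ps6 were identical to each other. They differed from Rpl35a by G246A, counted from the first base of transcript Rpl35a-201, and Rpl35a-ps5 carried G246A, A261G and C324T. The window holds the first 2 of these positions, with differing bases in capitals. Rpl35a lies on the plus strand at chr16:33057514-33057542 joined to chr16:33058679-33058690, Gm10243 at chr6:48523653-48523693 (plus) and Rpl35a-ps5 at chr5:33076173-33076213 (plus).
Rpl35a: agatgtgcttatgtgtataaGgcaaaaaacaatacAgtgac
Gm10243: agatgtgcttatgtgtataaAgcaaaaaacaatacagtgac
Rpl35a-ps5: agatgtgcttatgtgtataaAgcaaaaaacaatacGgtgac

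Chromosomal copies of mt-Co1, the mitochondrial gene of cytochrome c oxidase subunit 1, differed in their distance from it. The 60 bases with most differences to Gm13340, among those that both copies cover, are shown with the 3 differing bases in capitals. They lie at chrM:6448-6507 (plus), chr2:22588468-22588527 (minus) and chr1:24616071-24616130 (minus). Gm29216 matched mt-Co1 throughout this window. Outside it, Gm13340 carried further substitutions along much of mt-Co1, and Gm29216, which is truncated, carried A1066T.
mt-Co1: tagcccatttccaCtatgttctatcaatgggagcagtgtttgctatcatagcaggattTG
Gm13340: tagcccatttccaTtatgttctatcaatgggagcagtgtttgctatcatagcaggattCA
Gm29216: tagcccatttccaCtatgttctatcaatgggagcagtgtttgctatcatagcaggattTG

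Together the 147 pseudogenes held 11262 reads in replicate 1 and 24894 reads in replicate 2. This was 1.41% (exact binomial 95% interval 1.39% to 1.44%) and 1.55% (1.53% to 1.57%) of the reads in annotated genes. The intervals cover counting error only. The share averaged 1.48% ± 0.0996 (SD, n = 2). Reads per pseudogene ranged between 20 and 2503 with a median of 75, as the rule on reads sets the lower end. Just inside it lay Rpl17-ps9 and Vcp-rs with 20 reads each, and just outside lay Gm10359, Gm49594, Gm7331 and Rpl17-ps3 with 19 reads each.

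**Figure D1:**
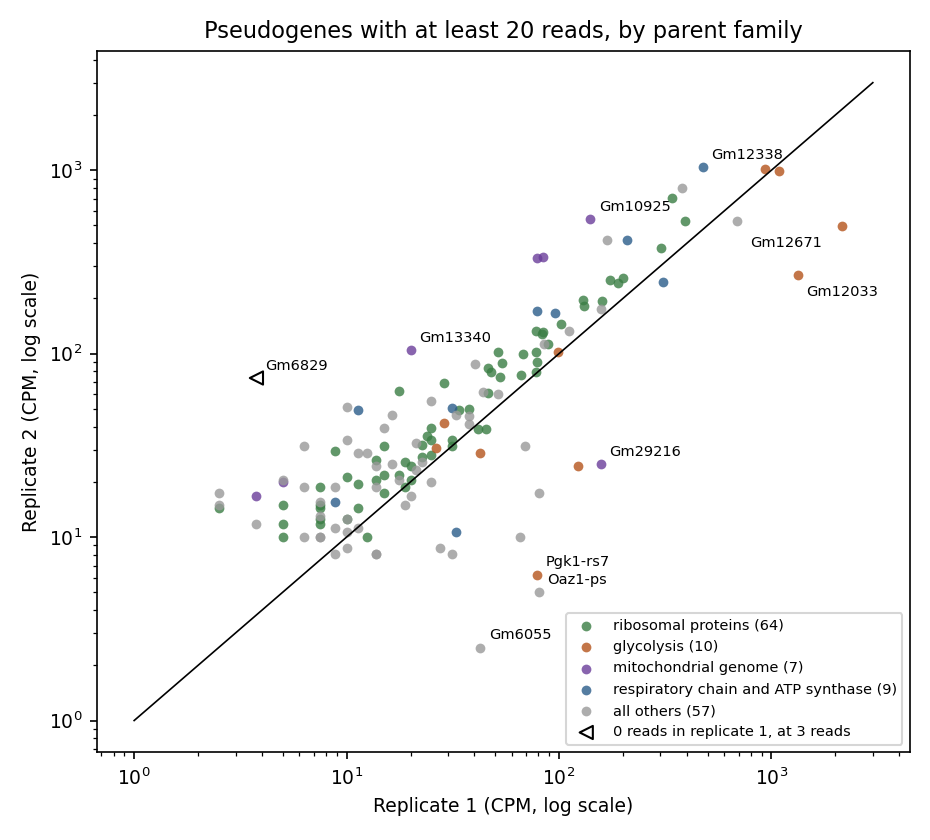
Level of each of the 147 pseudogenes in replicate 1 (x axis) and replicate 2 (y axis), in CPM on log scales, coloured by the family of the parent gene; the line marks equal levels and the open triangle is Gm6829, drawn at 3 reads because replicate 1 had 0. The Gapdh copies Gm12671 and Gm12033 lie far to the right of the line, and most mitochondrial copies lie above it.

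Processed pseudogenes made up most of the set. The annotation gives 118 members the type processed pseudogene, 17 transcribed processed, 7 unprocessed, 4 transcribed unprocessed and 1 only pseudogene. Processed pseudogenes held 87.4% of the members' reads in replicate 1 and 77.9% in replicate 2, and transcribed processed ones held 8.34% and 12.3%. The 7 unprocessed members held 3.47% in replicate 1 and 8.85% in replicate 2, and all of them are copies of mitochondrial genes. Of the 9941 processed pseudogenes in the annotation, 519 had a read. In total 14 members lie on the X chromosome and 134 lie on another chromosome than their parent. No other annotated gene overlaps 88 members. Of the rest, 6 overlap an exon and 17 an intron of a gene on the same strand, and 11 and 25 do so on the opposite strand.

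Almost all reads of these pseudogenes were placed in models of 1 exon. Models of 1 exon held 98.5% of the members' reads in replicate 1 and 98.4% in replicate 2, beside 8.74% and 15.7% over all 6119 annotated genes with at least 20 reads. In the 133 other genes with 1 annotated exon and at least 20 reads the share was 98.9% in replicate 1 and 99.3% in replicate 2, so it did not set the members apart from single-exon genes. A read of a spliced parent that was placed on a copy without introns would also count as 1 exon. The annotation itself gives 1 exon to 134 of the 147 members. Of these, 16 had at least 1 read in a spliced model. All spliced models of members together held 166 reads in replicate 1 and 410 in replicate 2.

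The reads also followed annotated models more often than those of annotated genes as a whole. TALON, the program that named the models, calls a model Known where it matches an annotated transcript. Known models held 98.7% of the members' reads in replicate 1 and 93.3% in replicate 2 (mean 96.0% ± 3.82, SD, n = 2). Over all annotated genes with at least 20 reads the share was 67.0% in replicate 1 and 68.1% in replicate 2. It was 98.8% and 99.1% in the 133 other single-exon genes, so the members did not stand above other single-exon genes. In 122 members every read lay in a Known model.

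Most of the difference between the libraries in model class lay in 1 member. Incomplete splice match (ISM) models, the class TALON gives to a partial match of an annotated transcript, took 0.151% of the members' reads in replicate 1 and 5.76% in replicate 2. In replicate 2, 1302 of these reads lay in 1 model of Gm12338, a copy of the cytochrome c oxidase subunit gene Cox7c. This model is 90 bases long and lies at chr11:75599647-75599736. The annotated copy lies at chr11:75599763-75599954 on the minus strand, 26 bases away. No ISM model of Gm12338 had reads in replicate 1. Its Known models held 379 reads in replicate 1 and 361 in replicate 2. Without Gm12338 the Known share averaged 98.6%.

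**Figure D2:**
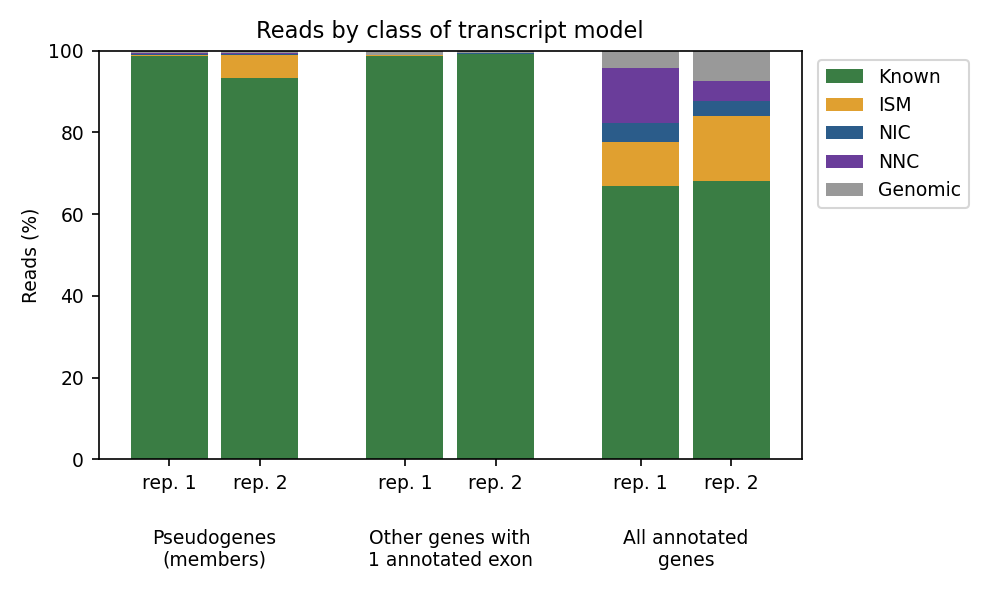
Share of reads (y axis, %) in each class of transcript model, with a stacked bar for each library, for the 147 pseudogenes, the 133 other genes with 1 annotated exon and the 6119 annotated genes with at least 20 reads. Known models fill 98.7% and 93.3% of the pseudogene bars, and the ISM part of 5.76% stands in replicate 2.

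The members resembled protein-coding genes closely. Each annotated sequence was divided into words of 25 bases, and the parent was taken as the protein-coding gene that held most of them. A parent with at least 20% of the words was found for 142 members, among 115 parent genes. At least 80% of the words were in the parent for 121 members, and all of them for 41. The median share was 93.6% in the members, 61.4% in 513 pseudogenes with 1 to 19 reads and 8.30% in 12860 without a read. The median annotated lengths of these sets were 538, 636 and 574 bases. The rule chose members by reads, and how far likeness to a parent brings in the parent's reads was not tested.

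**Figure D3:**
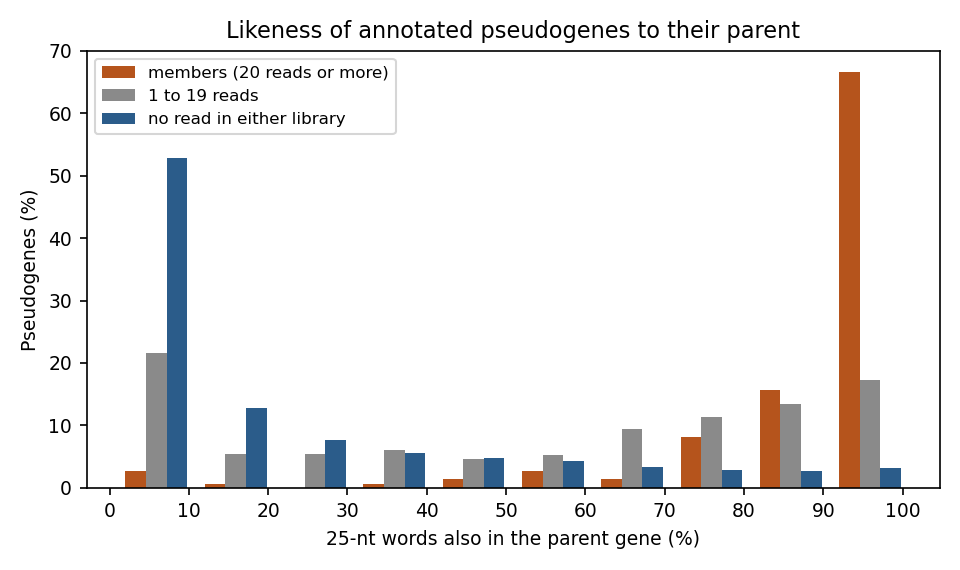
Share of annotated pseudogenes (y axis, %) by the share of their 25-base words that the parent gene also holds (x axis, %), for the 147 members, pseudogenes with 1 to 19 reads and pseudogenes without a read. The members stand at the right, with a median of 93.6%, and pseudogenes without a read at the left, with a median of 8.30%.

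Alignment of each member to its parent transcript gave a median identity of 99.75%, and 45 of 142 aligned without a difference. Of 133 processed members whose parent transcript is spliced, 76 joined every junction of the parent and 130 joined at least 1. These members joined 607 of 671 parent junctions in all. The alignment covered the whole parent coding sequence in 111 of them, and 106 of these held an open reading frame at least as long as that coding sequence. The annotated model of many copies ends at or before the stop codon, and the count was 83 where a stop inside the model was required. Both values depend on which parent transcript is used, between 103 and 111 covering it and between 98 and 106 with the frame.

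Copies of Gapdh held more reads than those of any other parent. Gm12671 had 1706 reads in replicate 1 and 797 in replicate 2, which is 2140 and 497 CPM. Gm12033 had 1065 and 431 reads, Gm5559 had 865 and 1580, and Gm7336 had 742 and 1635. Gm12671 and Gm12033 were thus higher in replicate 1, while the levels of Gm5559 (1085 and 986 CPM) and Gm7336 (931 and 1020 CPM) were close in both libraries. The other 4 copies, Gm13394, Gm13292, Gm2606 and Gapdh-ps15, had between 21 and 163 reads in a library. Gapdh itself had 57 reads in replicate 1 and 122 in replicate 2. The 8 copies therefore held 98.8% of the reads of copies and parent in replicate 1 and 97.5% in replicate 2.

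The substitutions shown above did not order the Gapdh copies by reads. Gm12033, Gm5559, Gm13394 and Gm2606 each differ from Gapdh by 1 substitution, and their reads summed over both libraries ran between 90 and 2445. Gapdh-ps15, with 5 substitutions, lies on the Y chromosome at chrY:38619783-38620784. It had 21 reads in replicate 1 and 49 in replicate 2, although the animals were female. No read was assigned in either library to Uty, Kdm5d, Eif2s3y or Ddx3y, which are Y-linked genes.

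**Figure D4:**
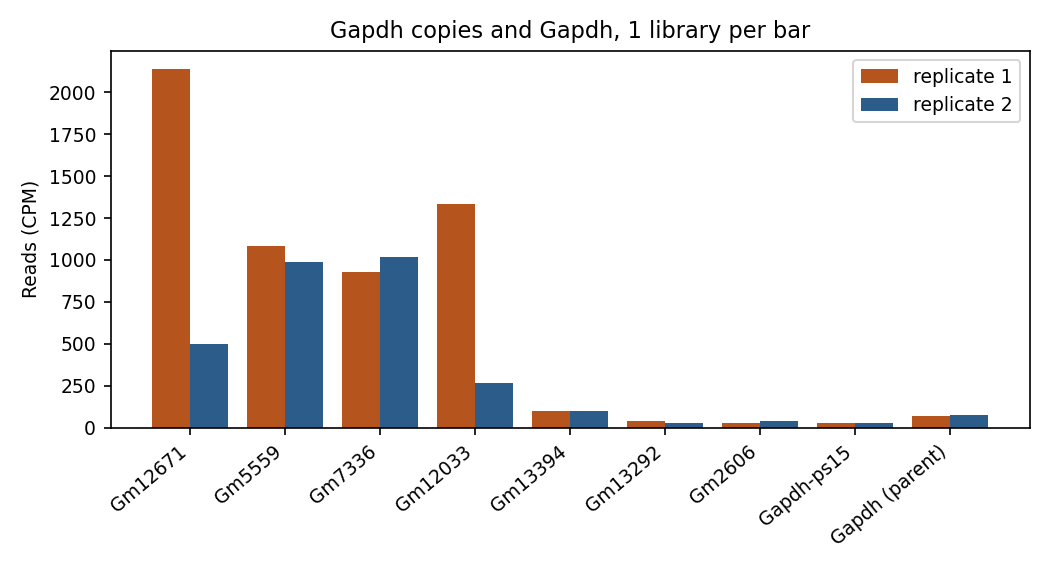
Level in CPM (y axis) of the 8 Gapdh copies and of Gapdh (x axis), with 1 bar for each library and no error bars. Gm12671 reaches 2140 CPM in replicate 1 and 497 CPM in replicate 2, and Gapdh stands below 5 of its copies in both libraries.

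Ribosomal protein genes were the parents of most members, with 64 copies of 48 genes. In sum these copies stood at 3816 CPM in replicate 1 and at 5553 CPM in replicate 2. The highest were Gm15500, a copy of Rpl5 (270 and 1135 reads), Gm14303, a copy of Rps29 (312 and 842 reads), and Rpl37rt, a copy of Rpl37 (240 and 607 reads). Copies of Rpl35a, Rpl21 and Rpl17 outnumbered the reads of their parents most. The 5 copies of Rpl35a had 200 reads in replicate 1 and 575 in replicate 2, beside 27 and 87 reads of Rpl35a. The 4 copies of Rpl21 had 258 and 668 reads, beside 25 and 54 of Rpl21, and the 3 copies of Rpl17 had 61 and 157, beside 2 and 15.

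Copies with the same annotated sequence still differed in reads. Gm10243 had 151 reads in replicate 1 and 388 in replicate 2, Rpl35a-ps2 had 14 and 100, Rpl35a-ps3 had 20 and 45, and Rpl35a-ps6 had 6 and 19. Gm10243 was highest of these in both libraries and Rpl35a-ps6 lowest. The sequence beyond the annotated ends of these copies was not examined.

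In total, 15 of 97 parents whose copies share at least 80% of their words had fewer reads than their copies over both libraries, and 14 of them had fewer in both. The 14 were Gapdh, Rpl35a, Rpl21, Rpl17, Rpl30, Rpl31, Rps2, Rps6, Rps13, Rps19, Atp5g2, Ppia, mt-Atp6 and mt-Co2. For Rps6, Rps19, Ppia and mt-Co2, the exact binomial interval of the share in copies held an even split in both libraries. For Rps13 and mt-Atp6 the interval held it in replicate 1 alone. In those libraries the excess of copies over these parents lay within counting error. Among the 100 parents with 1 copy, the copy held a median of 18.1% of the joint reads in replicate 1 and 19.5% in replicate 2. The median was 28.0% and 27.7% for the 35 copies with no difference in the alignment. It was 14.6% and 12.0% for 32 copies with 1 or 2 differing bases, and 8.42% and 15.5% for 33 copies with 3 or more. For 8 copies the share lay between 45% and 55% in both libraries. Examples are Gm14303 with Rps29 (49.2% and 49.4%) and Gm10123 with the cyclophilin gene Ppia (50.8% and 51.2%). Gm15459 with the chaperone gene Hspa8 had 49.0% and 46.7%, although its alignment holds 5 substitutions.

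**Figure D5:**
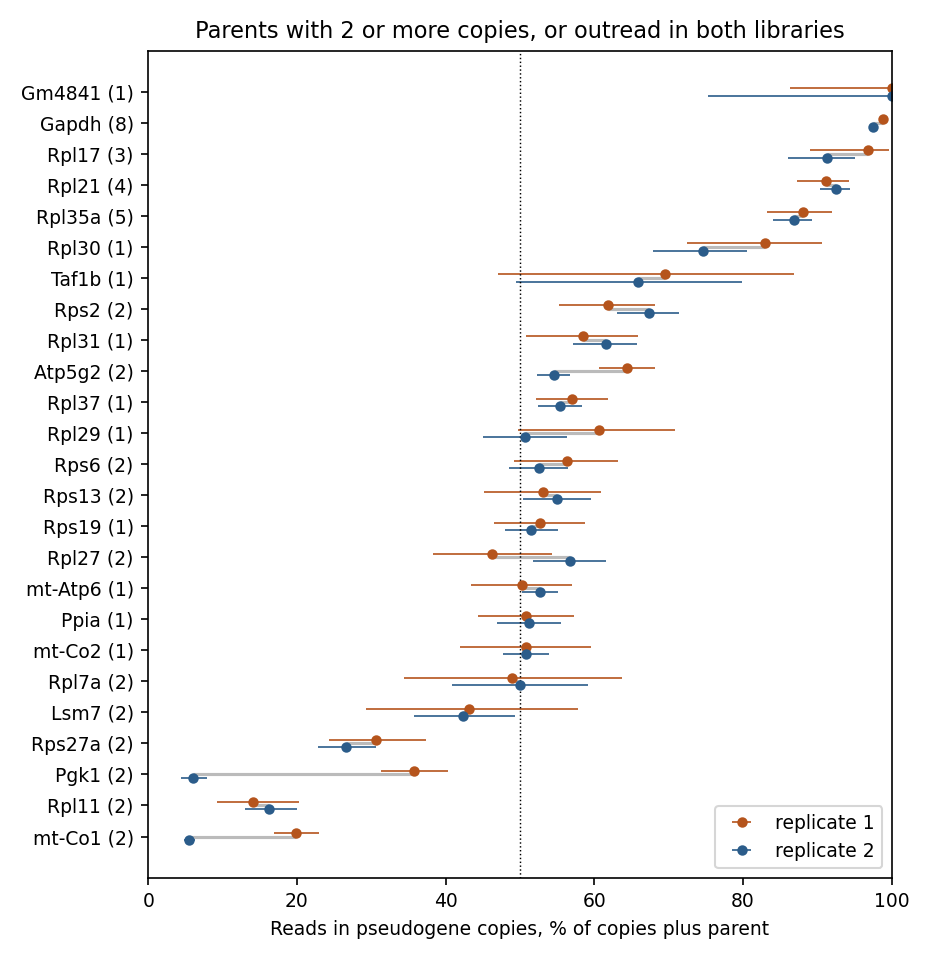
Reads in pseudogene copies as a share of the reads of copies plus parent (x axis, %) for parents with at least 2 copies and for parents with fewer reads than their copies in both libraries (y axis, number of copies in brackets); points are libraries, bars are exact binomial 95% intervals, and grey lines join the libraries. Gapdh stands at 98.8% and 97.5%, and Pgk1 moves most between the libraries, with 35.7% in replicate 1 and 5.98% in replicate 2. Parents are drawn whatever the share of words in their copies. Rpl37, Rpl29, Taf1b and Gm4841 are therefore also drawn, beside the 14 outread parents named in the text.

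Copies of mitochondrial genes lay in 2 places. Gm28439, Gm28438, Gm28437, Gm10925, Gm28661 and Gm29216 lie side by side within 4663 bases at chr1:24611535-24616197, and Gm13340 lies alone on chromosome 2. Gm10925, a copy of mt-Atp6, had 112 reads in replicate 1 and 865 in replicate 2, beside 111 and 777 of mt-Atp6. Gm28661 had 67 and 541 reads beside 65 and 524 of mt-Co2, and Gm28437 had 63 and 531 beside 67 and 552 of mt-Co3. These 3 copies aligned to the mitochondrial gene without a difference, and their reads came close to those of the gene in both libraries. The ratio between the libraries was also alike, 3.84-fold, 4.02-fold and 4.19-fold lower in replicate 1 for the copies. Gm29216, the truncated copy of mt-Co1 in the same stretch, went the other way with 126 reads in replicate 1 and 40 in replicate 2. The reads of mt-Co1 were 575 and 3567. Gm28439, also in this stretch, had 4 and 32 reads beside 123 and 735 of mt-Nd4. Gm28438 had 3 and 27 reads beside 6 and 30 of mt-Nd3. Reads close to those of the gene were thus not found for all copies of the stretch.

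Parents with names of the respiratory chain and ATP synthase families, by a list that does not hold Usmg5, had 9 members, which held 1253 CPM in replicate 1 and 2166 CPM in replicate 2. Gm12338 had 380 and 1665 reads, of which the short model described above took most in replicate 2. Gm10175 and Gm10231, whose annotated sequences include an identical 441-base transcript, are copies of Atp5g2, a subunit of the ATP synthase ring. Gm10175 had 166 reads in replicate 1, against 669 in replicate 2, and Gm10231 had 247 and 393. Gm14539, a copy of Usmg5, whose protein is also a part of the ATP synthase, had 302 and 1275 reads and is not in these sums. Mpc1-ps, a copy of the mitochondrial pyruvate carrier gene Mpc1, had 134 and 666.

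Spliced reads lay both in members annotated with several exons and in members annotated with 1. Ube2d-ps, annotated with 7 exons, had 28 spliced reads in replicate 1 and 71 in replicate 2, and no parent with 20% of its words. 1810014B01Rik had 16 and 38 spliced reads and Gm19196, whose parent is the transcription factor subunit gene Taf1b, had 16 and 27. Gm6829, a copy of Golga7 on the X chromosome, is annotated with 1 exon but had all of its 118 reads in spliced models. Of these, 117 lay in 1 ISM model of 2 exons in replicate 2, and replicate 1 had 0 reads. Gm13292, a Gapdh copy, had 31 and 46 reads in spliced models, and 3.75% of its reads were in Known models. No parent was found for Ube2d-ps, 1810014B01Rik, B330016D10Rik, Gm31166 and 2810025M15Rik, and these held 69 reads in replicate 1 and 165 in replicate 2.

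The rule used the sum of the reads, which did not fix the ratio between the libraries. Replicate 2 had more reads in total and so weighed more in this sum. Gm6829 had reads in replicate 2 alone. Other called members also reached 20 reads only with the library where they were higher. Examples are Rps12-ps10 (2 reads in replicate 1 and 23 in replicate 2), Gm14567 (2 and 28), Gm6055 (34 and 4) and Oaz1-ps (64 and 8). The part of this in the calls was not tested. Each gene was compared by Fisher's exact test, two-sided, with Benjamini-Hochberg adjustment over 8096 annotated genes with at least 10 reads. Genes were called where the adjusted p was below 0.05 and the CPM ratio reached 2-fold. The test compares these 2 libraries and says nothing of conditions, and its p-values cover counting error only. Of the 147 members, 13 were higher in replicate 1, which is 8.84%, where 5.47% of all genes tested were called higher. In replicate 1, 29 members were lower, which is 19.7%, where 5.78% of all genes tested were called lower. The median log2 ratio of replicate 1 over replicate 2 (pseudocount 1 CPM) was -0.48 in the members and -0.05 over all genes tested. Among the 6119 genes with at least 20 reads, the minimum the members meet by rule, 6.73% were called higher and 7.53% lower. The median was -0.43 over the 114 parents tested, of which 1 was higher and 15 were lower in replicate 1.

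Transcript length moved with these ratios. Annotated genes other than members whose longest annotated transcript is under 1000 bases had a median log2 ratio of -0.60 (559 genes), and the 116 members of this length had -0.54. From 1000 to under 2000 bases the members lay apart, with -0.11 (29 members) beside -0.39 in 1545 other genes. These 29 include several copies of 1 parent, such as the Gapdh copies Gm12671 and Gapdh-ps15, so they do not stand for 29 separate parent genes. From 2000 to under 4000 bases the median was -0.45 in only 2 members and 0.04 in 3327 other genes. For genes with 4000 bases or more the median was 0.25. The median model length, weighted by reads, was 1588 bases in replicate 1 and 1208 bases in replicate 2 over all annotated genes, and 894 and 531 bases over the members. The part of length in the calls was not tested.

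Members higher in replicate 1 were led by copies whose parents were not. Gm6055, a copy of the autophagy gene Map1lc3b, had 34 reads in replicate 1 and 4 in replicate 2, a 17.1-fold difference (exact binomial 95% interval 6.09 to 66.3, Fisher's exact test, adjusted p = 2.16e-11). Oaz1-ps, a copy of the ornithine decarboxylase antizyme gene Oaz1, had 64 and 8 reads (16.1-fold, 7.69 to 38.8). Pgk1-rs7, a copy of the glycolytic kinase gene Pgk1, had 63 and 10 (12.7-fold, 6.45 to 27.7), and the second Pgk1 copy Gm5537 had 98 and 39. The parents Map1lc3b, Oaz1 and Pgk1 stood at 0.815, 0.782 and 0.757 times the level of replicate 2.

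Apoo-ps, a copy of a gene for a protein of the inner mitochondrial membrane, had 52 reads in replicate 1 and 16 in replicate 2 (6.53-fold). Gm29216 was 6.33-fold higher (4.40 to 9.28), Gm12033 4.97-fold (4.44 to 5.57), Gm10774, which overlaps an exon of Usp50, 4.59-fold and Gm12671 4.30-fold (3.95 to 4.69). Gapdh stood at 0.939 times and passed no threshold. It held only 57 reads in replicate 1 and 122 in replicate 2. Its 8 copies together stood at 5689 and 2976 CPM, beside 71.5 and 76.1 CPM of Gapdh. The assignment of reads between copy and parent is uncertain, so the ratio of Gapdh alone does not give that of copies and parent together. None of the 12 members called higher whose parent was tested had a parent called higher, and 3 had a parent called lower. Oaz1-ps lies in an intron of AC154200.1 on the same strand, which had 215 reads, and Usp50 had 818 reads. The part of overlapping genes in these ratios was not tested.

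Members lower in replicate 1 included 6 of the 7 mitochondrial copies. Gm13340 had 16 reads in replicate 1 and 167 in replicate 2 (5.19-fold lower, Fisher's exact test, adjusted p = 2.40e-13). Gm6829, with 0 and 118 reads, was at least 19.6-fold lower, taking 3 counts in replicate 1, and the exact binomial 95% interval of its fold began at 15.7. The other large folds rested on few reads, such as Gm14567, a copy of the RNA polymerase subunit gene Polr2k, with 2 and 28. Gm8566, a copy of the superoxide dismutase gene Sod1, had 8 and 82 reads (5.10-fold lower). Of the 29 members called lower, 11 had a parent called lower and 18 had a parent that was not called. Rpl35a-ps2 was 3.55-fold lower, while Rpl35a-ps3 and Gm10243, of the same annotated sequence, were not called.

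Of the 64 ribosomal protein copies, none was higher and 5 were lower in replicate 1 by Fisher's exact test. That is 7.81%, close to the 7.53% of all genes with at least 20 reads. The median log2 ratio of these copies was -0.51. An unadjusted p under 0.05 in this test was found for 24 of the 64, beside 2459 of all 8096 genes tested. Of the 10 glycolysis copies, 8 are of Gapdh and 2 of Pgk1, so they do not stand for 10 separate parent genes. In replicate 1, 4 of them were higher (40%, beside 6.73% of genes with at least 20 reads) and none was lower. By Fisher's exact test, 6 of them had an unadjusted p under 0.05. In the respiratory chain and ATP synthase list, 4 of 9 copies were lower (44.4%, beside 7.53% of genes with at least 20 reads). Among these 4 were Gm12338 (2.18-fold lower) and Gm10175 (2.00-fold lower). Only 1 of the 9 was higher (11.1%, beside 6.73%), the Atp5g1 copy Gm10039 (3.07-fold). Gm10175 lost its call under 4 of 7 other settings, at 0.506 to 0.544 times the level of replicate 2. Gm14539, outside the list, was 2.10-fold lower. Counted in Known models alone, Gm12338 was 2.14-fold higher in replicate 1.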

How the data were processed

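Long-read RNA-seq was analysed in 2 libraries of 1 group. The authors deposited, for each library, whole-number read counts per transcript model with the exon number and length of the model, and a transcript annotation, on mm10 with GENCODE M21 per the file headers and README. Models and classes are those of TALON; the sources used here name no aligner or read filter. Counts were summed per gene and scaled to CPM of the reads in annotated genes. A single read equals 1.25 CPM (replicate 1) or 0.624 CPM (replicate 2), and 0 counts allow up to 3.76 CPM or 1.87 CPM (3 counts). Shares carry exact Clopper-Pearson 95% intervals. Pseudogene transcripts were compared with protein-coding ones by 25-nt words and aligned with Biopython 1.88 (match 2, mismatch -3, gap open -5, gap extend -2). Fisher's exact test ran in scipy 1.17.1 and was tested on simulated data, where recovery of changed genes fell with their reads; the mark it had to reach was moved to genes with at least 50 reads after the first outcome was seen. A member with few reads that was not called may still differ. TMM factors (edgeR 4.0.16) and size factors (DESeq2 1.42.0) served as other scalings.

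The members and lists were chosen with earlier results of these data known. Named genes were those with the highest mean CPM, the largest folds, most reads per type, parent or class, most spliced reads, no parent, or reads at the limit. The rule for the parent transcript (an APPRIS principal one, then the shortest), the rule for the open reading frame, the minimum of 20% of words for a parent with its order among ties, the set of other single-exon genes and the split by length were chosen after values were seen. The parent transcript rule was changed more than once, and every version tried is given.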

Additional observations from a re-analysis of the deposited data

How the results depend on the processing

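The counts of 13 members called higher and 29 called lower in replicate 1 ranged over 13 to 13 and 23 to 32 under 7 other scalings, model classes and read minimums. Neither count could be recomputed with a replicate left out, since 1 library gives no test. No paired analysis was possible because the labels give 1 group. Leaving out a replicate gave 1.41% to 1.55% for the share of reads in members, 93.3% to 98.7% for the Known share, 98.4% to 98.5% for the single-exon share and 14 to 15 parents with fewer reads than their copies. The share of reads in members was 2.12% with Known models only and 1.79% without ISM and Genomic models. The median over members was 100% for both the Known and the single-exon share. The single-exon share was 98.3% at a minimum of 10 reads, 98.8% at 50 reads and 98.3% without Gm12671. Asking for 95% of words left 64 members, and 7 parents with fewer reads than their copies. The ratio of Gm12338 reversed to 2.14 with Known models only and 1.90 without ISM and Genomic models, both of which leave out its short model. For 59 named members and 7 settings, 405 of 413 ratios could be computed: 391 kept their side of the threshold, 11 no longer passed, 1 came to pass and 2 reversed. The other 8 had too few reads left in the classes counted, 3 of them for members called before, Gm6829 and BC023105. Gm10175 lost its call under 4 settings, and Gm14539, Gm15500 and Gm10221 with Atp2a1 left out of the total. Leaving out Gm12338 and the other choices of parent transcript were added after seeing the data. Low reads limit the ratios, and members with few reads have wide intervals.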
